A study of Mus musculus with 8 samples.

Results

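The vacuolar ATPase (V-ATPase) subunits were followed through RNA-seq of BMDMs (bone marrow-derived macrophages, obtained by culturing marrow cells). The 10 members were taken by gene symbol, by a rule that names no measured value: Atp6ap1, Atp6v0a1, Atp6v0c, Atp6v0d1, Atp6v0d2, Atp6v1a, Atp6v1b2, Atp6v1c1, Atp6v1e1 and Atp6v1h. They are 10 of the 21080 symbols in the tables, and all 10 were among the 16284 genes that were tested, those whose coverage averaged 0.5 or more over the samples. The study asked how loss of Nudt21, a subunit of the complex that chooses polyadenylation sites, changes the response of macrophages. In Nudt21-cKO mice (Nudt21 fl/fl with LysM Cre, C57BL/6 background) Cre removes a loxP-flanked stretch of Nudt21 from myeloid cells, and the WT mice were sex-matched littermates that carried LysM Cre as well. The 4 groups were WT and cKO BMDMs left without stimulation (0 h) and WT and cKO BMDMs given IFNγ overnight followed by LPS for 4 h (4 h). Each group had 2 samples, numbered 1 and 2 in WT and 3 and 4 in cKO, and each sample pooled BMDMs from 2 mice. BMDMs were grown with M-CSF, and the age of the mice was not given in the sources used here.

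The V-ATPase is a rotary proton pump that acidifies endosomes, lysosomes and phagosomes and on which the degradation of autophagic cargo depends. Its peripheral V1 sector splits ATP in a ring of A and B subunits, and its membrane V0 sector carries protons through a ring built mainly of the c subunit. Subunits C and H sit where V1 meets V0 and take part in the reversible docking of the sectors, and E is part of the peripheral stalk. Several subunits exist as isoforms encoded by different genes, among them d1, which is found in most tissues, and d2, known from osteoclasts, macrophages and some epithelia. Many genes of the lysosome carry in their promoters the palindrome recognised by TFEB and related factors, the CLEAR element (coordinated lysosomal expression and regulation), whose core is the E-box CACGTG.

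The promoters are shown because the members encode parts of 1 machine that lysosomal transcription factors are known to regulate together. RefSeq promoter windows on GRCm38.p6, from 250 bases before to 50 bases after a transcript start, were given for 6 of the 10 members. No window was given for Atp6v0d2, Atp6v1b2, Atp6v1c1 and Atp6v1h. The E-box CACGTG, a palindrome that reads alike on both strands, occurred in the windows of 2 members, Atp6v0d1 and Atp6v1a. In both it was part of the longer palindrome TCACGTGA, written in capitals here, 5′ to 3′ on the strand of the gene.
Atp6v0d1, chr8:105566050-105566079, minus strand: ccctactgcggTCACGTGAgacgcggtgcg
Atp6v1a, chr16:44139373-44139402, minus strand: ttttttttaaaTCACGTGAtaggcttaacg

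The first base of the motif lay 3 bases upstream of the start in Atp6v0d1 and 131 bases upstream in Atp6v1a. Among all 32851 mouse promoter windows 7.15% held CACGTG and 0.974% held TCACGTGA. Some genes have more than 1 window, and counted by gene, as the members are, 2187 of 27025 held CACGTG and 304 held TCACGTGA. The 10-base CLEAR palindrome, which contains both, was found in 0.326% of all windows and in 0 windows of the members. Of 26 other genes of the pathway with a window, listed with the results on them, 7 held CACGTG and 4 held TCACGTGA. Those 4 were Atp6v0e, Vma21, Clcn6 and Clcn7, and the windows of 2 of them are shown for comparison, with the same palindrome in capitals.
Vma21, chrX:71816694-71816723, plus strand: ccgcgggtaagTCACGTGAgtgcttgcagc
Clcn7, chr17:25133386-25133415, plus strand: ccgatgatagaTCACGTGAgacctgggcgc

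The authors deposited 1 coverage value for each gene, whose unit is not named and was read from the values as mean read coverage per base. Such a unit allows levels of different genes to be set side by side, although it also depends on which 3′ end is used. Summed over genes, the coverage of a sample in WT was 15751245 and 15827594 at 0 h and 15552049 and 14950347 at 4 h. In cKO it was 16650103 and 17744522 at 0 h and 17360205 and 17954882 at 4 h. No scaling between samples was found in the values, so samples were centred on their median before genotypes were compared. Without centring, the median gene differed by 0.28 (log2) between cKO and WT at 4 h and by 0.09 at 0 h, and its difference between 4 h and 0 h was -1.24 in WT and -1.03 in cKO. With samples scaled to equal total coverage, the difference between the times was -1.19 in WT and -1.07 in cKO. Centring therefore moved the stimulation effects upward, although the summed coverage was similar at both times. Nudt21 itself had a coverage of 546.6 and 575.1 for WT against 142.3 and 115.2 for cKO at 4 h, and of 717.7 and 640.8 for WT against 158.3 and 172.3 for cKO at 0 h. The libraries thus matched their labels, with a centred log2 fold change of -2.49 at 4 h (standard error 0.13, adjusted p = 0.00236) and -2.13 at 0 h (standard error 0.13, adjusted p = 0.00376, both by limma, Benjamini-Hochberg method). Macrophage markers were present in every sample, with a summed coverage of 8 markers from 121000 to 133000 at 0 h and from 64100 to 75300 at 4 h. Single markers of this list differed widely, with Lyz2 at 454.6 to 1375 and Cd68 at 12360 to 73400. Among the markers of other cells, 6 of neutrophils and their precursors summed to 15300 to 28900 in every sample, with S100a8 and S100a9, which monocytes also express, highest, Mpo at 76.42 to 294.3 and Elane at 90.18 to 446.4. Of the same list, Camp was at 368 to 687.7 and Ly6g was at most 7.368 in any sample. The 4 stromal markers summed to 15.8 to 219 and the 5 dendritic cell markers to 11.2 to 267, and the 3 B cell and 3 T cell markers each summed to at most 4.36.

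In unstimulated WT BMDMs the proton-carrying ring subunit Atp6v0c was the most abundant member, with a deposited coverage of 24400 ± 674 (SD, n = 2 samples). Atp6v0d2 came next at 11990 ± 2220 (SD, n = 2), above its isoform Atp6v0d1 at 3656 ± 166 (SD, n = 2). The lowest member was Atp6v1h, the subunit H that couples V1 to V0, at 2343 ± 141 (SD, n = 2). Between these lay, from high to low, Atp6v1b2, Atp6ap1, Atp6v1a, Atp6v1e1, Atp6v1c1, Atp6v0a1 and Atp6v0d1. The samples of Atp6ap1 and Atp6v1a overlapped, and other neighbours in this order did not. In unstimulated cKO BMDMs Atp6v1a stood second at 13920 ± 725 (SD, n = 2), a level whose samples overlapped those of Atp6v0d2.

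After 4 h of stimulation the order below the first place was different. Atp6v0c stayed first, with 14330 ± 697 (SD, n = 2) in WT and 22880 ± 2070 (SD, n = 2) in cKO. The stalk subunit Atp6v1e1 stood second, at 8095 ± 517 (SD, n = 2) in WT and 8540 ± 457 (SD, n = 2) in cKO. Atp6v0d2 was now the lowest of the 10 in both genotypes, at 485.0 ± 153 (SD, n = 2) in WT and 930.4 ± 55.7 (SD, n = 2) in cKO. No neighbours in the order overlapped in either genotype at 4 h. The 10 members together made up 0.517% and 0.547% of all coverage for WT against 0.641% and 0.605% for cKO at 0 h. At 4 h these shares were 0.249% and 0.261% for WT against 0.303% and 0.316% for cKO, so the cKO shares exceeded the WT shares at both times.

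**Figure D1:**
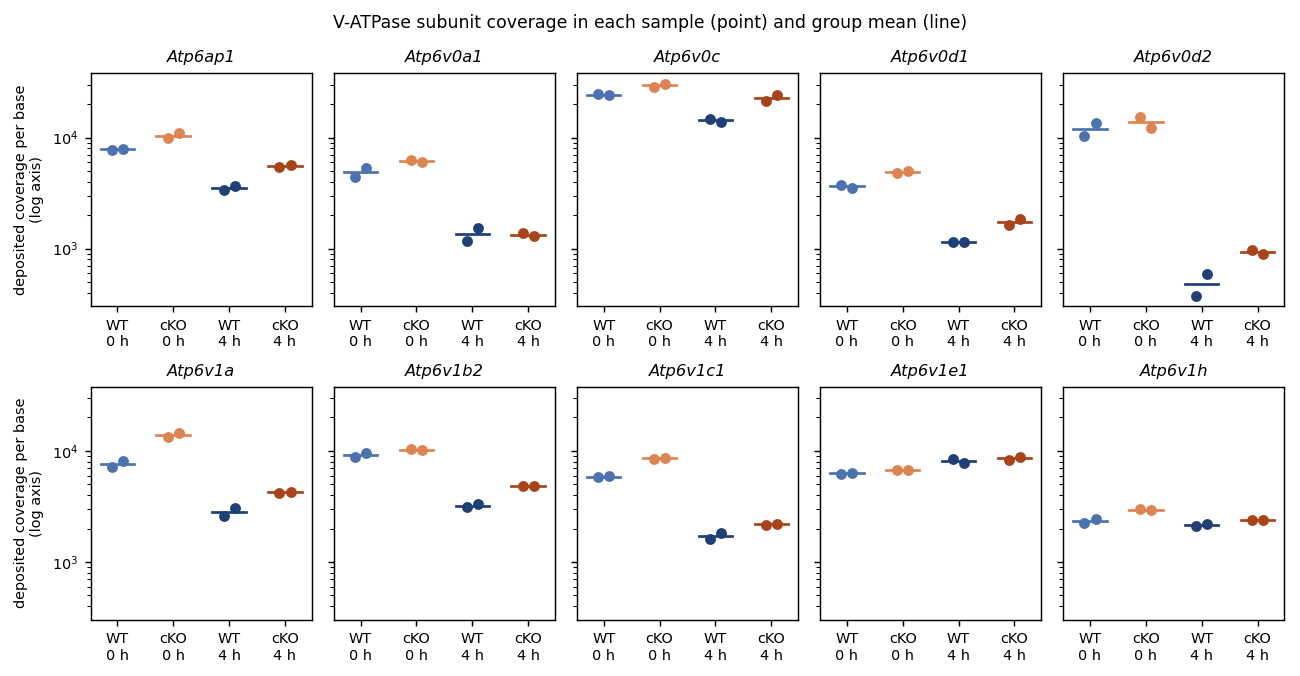
Deposited coverage per base (log axis) of the 10 V-ATPase subunits in WT and cKO BMDMs at 0 h and 4 h, with 1 point per sample and a line at the mean of 2 samples. Atp6v0d2 falls from at least 10420 at 0 h to at most 969.7 at 4 h, and Atp6v1a at 0 h is separated between genotypes.

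The comparison of genotypes without stimulation asked which subunits differed in cKO before any signal was given. One member, the catalytic A subunit Atp6v1a, rose in cKO and no member fell. Its deposited coverage was 7206 and 8037 for WT against 13410 and 14430 for cKO. Both cKO samples lay far above both WT samples. After centring its log2 fold change reached 0.78 (standard error 0.10, adjusted p = 0.0212 by limma, Benjamini-Hochberg method), a fold of 1.71, and on the deposited scale it was 0.87 (adjusted p = 0.0323). Over all genes 2.79% were called higher at 0 h at an adjusted p under 0.05 and 2.17% lower, against 1 and 0 of the 10 members. The deposited scale also gave 1 and 0, against 3.42% and 1.66% of all genes. At an unadjusted p under 0.05, 4 members were higher (Atp6ap1, Atp6v0d1, Atp6v1a and Atp6v1c1), against 11.2% of all genes, and 0 lower, against 10.7%.

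The call of Atp6v1a depended on single libraries. The adjusted p ranged from 0.00326 to 0.104 over 9 alternative settings and passed in 7 of them. It was lost when samples were scaled to equal total coverage (0.0523) and when only the 4 samples at 0 h were fitted (0.104). When each of the 8 samples was left out in turn the log2 fold change stayed between 0.69 and 0.86 and the adjusted p lay between 0.0382 and 0.127. The call was lost without WT replicate 1, cKO replicate 3 or cKO replicate 4 at 0 h and without either cKO replicate at 4 h.

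The catalytic core of V1 is formed by A together with B, of which B2 is the broadly expressed form. A ratio of genes within a sample does not change when the sample is scaled by a single factor, although quantile normalization can change it. The ratio of Atp6v1a to Atp6v1b2 was 0.818 and 0.839 for WT against 1.29 and 1.42 for cKO at 0 h. At 4 h it was 0.833 and 0.913 for WT against 0.869 and 0.872 for cKO. The cKO samples at 0 h were the only ones of the 8 with more coverage on A than on B2. Their mean ratio was 1.63 times that of WT, with an exact two-sided permutation p of 0.333, the smallest that 2 samples against 2 can give.

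The other V1 members did not pass the test at 0 h. Atp6v1c1, the subunit C that bridges the sectors, came closest. It had a deposited coverage of 5762 and 5915 for WT against 8484 and 8602 for cKO, which did not overlap. Its centred log2 fold change was 0.46 (standard error 0.09, limma adjusted p = 0.0583), and it passed with a variance that followed the mean coverage (0.0127) and with a stricter filter on low coverage (0.0468), in 2 of 9 alternatives and in 0 of 8 fits with a sample left out. Atp6v1h had 2243 and 2442 for WT against 2971 and 2957 for cKO, with a log2 fold change of 0.25 (limma adjusted p = 0.294). Atp6v1b2 had 8814 and 9584 for WT against 10400 and 10170 for cKO. This subunit and the stalk subunit Atp6v1e1 were nearest to 0, at 0.07 (95% interval -0.21 to 0.34) and 0.00 (95% interval -0.39 to 0.39).

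None of the V0 members passed at 0 h either. Atp6ap1, an accessory protein of the V0 sector, had a deposited coverage of 7746 and 7875 for WT against 9843 and 10980 for cKO. Its log2 fold change was 0.32 (standard error 0.09, limma adjusted p = 0.134). The central stalk-binding isoform Atp6v0d1 had 3774 and 3539 for WT against 4820 and 4984 for cKO, and a log2 fold change of 0.33 (standard error 0.12, limma adjusted p = 0.215). Both were separated between genotypes on both scales without passing the adjusted threshold. Atp6v0a1, one of the large a subunits that line the path of the protons, had 4418 and 5372 for WT against 6282 and 5972 for cKO, with a log2 fold change of 0.24 (limma adjusted p = 0.428). The ring subunit Atp6v0c had 24880 and 23920 for WT against 28580 and 30460 for cKO, with a log2 fold change of 0.18 (limma adjusted p = 0.561). Atp6v0d2 had 10420 and 13560 for WT against 15290 and 12110 for cKO, samples that overlapped, with a log2 fold change of 0.10 (95% interval -0.52 to 0.72). After centring, the 2 cKO samples exceeded the 2 WT samples for 6 of the 10 members, against 28.8% of all genes, and were below them for 0, against 31.0%. The median log2 fold change of the members was 0.24, beside 0.00 over all genes tested.

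At 4 h the comparison was repeated in stimulated cells, where the effect of the scale was larger. After centring no member was called by limma after Benjamini-Hochberg correction, against 7.20% of all genes called higher and 8.71% called lower. At an unadjusted p under 0.05, 1 member was higher in cKO, Atp6ap1, against 14.7% of all genes, and 0 were lower, against 18.8%. Without centring 5 of the 10 members were called higher and 0 lower, where 19.6% of all genes were called higher and 3.38% lower. Those 5 were Atp6ap1, Atp6v0c, Atp6v0d1, Atp6v1a and Atp6v1b2. By the rule of a fold above 1.5 with an unadjusted p under 0.05, 6 members were called higher on the deposited scale, against 20.7% of all genes, and 0 after centring, against 9.88%.

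Among the V0 members at 4 h, Atp6ap1 had a deposited coverage of 3350 and 3692 for WT against 5428 and 5708 for cKO. Both cKO samples were above both WT samples, and after centring they remained so. Its centred log2 fold change was 0.30 (standard error 0.09, limma adjusted p = 0.089), and on the deposited scale it was 0.66 (adjusted p = 0.0174). Over 9 alternatives the adjusted p of Atp6ap1 ran from 0.0174 to 0.187 and passed in 4, and it passed in 0 of 8 fits with a sample left out. Atp6v0c had 14820 and 13840 for WT against 21420 and 24340 for cKO, with a centred log2 fold change of 0.31 (limma adjusted p = 0.22) and 0.67 on the deposited scale (adjusted p = 0.0176). Its centred value ran from 0.14 to 0.49 when each sample was left out in turn. GENCODE lists the pseudogenes Atp6v0c-ps1 and Atp6v0c-ps2, which could share reads with Atp6v0c, so its value is uncertain.

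Both isoforms of subunit d had more deposited coverage in each cKO sample than in each WT sample at 4 h. Atp6v0d1 had 1138 and 1157 for WT against 1645 and 1837 for cKO, with a centred log2 fold change of 0.24 (limma adjusted p = 0.252) and 0.60 on the deposited scale (adjusted p = 0.0191). The centred value of Atp6v0d1 ran from 0.13 to 0.35 when each sample was left out in turn. Atp6v0d2 had 376.6 and 593.4 for WT against 969.7 and 891.0 for cKO. The WT samples of Atp6v0d2 were far apart, and the cKO samples lay above both. Its centred log2 fold change of 0.62 (standard error 0.24, limma adjusted p = 0.153) was the largest in size among the members at 4 h, and it was 0.97 on the deposited scale (adjusted p = 0.0621). Atp6v0a1 went the other way after centring, at -0.36 (standard error 0.14, limma adjusted p = 0.156), with a deposited coverage of 1163 and 1531 for WT against 1376 and 1289 for cKO. Its deposited samples overlapped and the log2 fold change was 0.00.

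Among the V1 members at 4 h the centred log2 fold changes of Atp6v1a and Atp6v1b2 were alike, at 0.23 each (limma adjusted p = 0.172 and 0.208). Atp6v1a had a deposited coverage of 2577 and 3052 for WT against 4196 and 4249 for cKO, and Atp6v1b2 had 3093 and 3342 for WT against 4826 and 4874 for cKO. Neither pair of groups overlapped, and on the deposited scale the log2 fold change of each was 0.59 (adjusted p = 0.0323 and 0.0177). For Atp6v1c1, Atp6v1e1 and Atp6v1h the sign turned with the scale. Their centred values were -0.01 (95% interval -0.23 to 0.22), -0.28 (95% interval -0.67 to 0.11) and -0.20 (95% interval -0.49 to 0.09), and their deposited values were 0.35, 0.08 and 0.16, with no call on either scale. After centring, the 2 cKO samples exceeded the 2 WT samples for 6 members, against 25.8% of all genes, and were below them for 3 (Atp6v0a1, Atp6v1e1 and Atp6v1h), against 38.3%. The median of the members was 0.23 after centring, beside -0.08 over all genes, and 0.59 on the deposited scale, beside 0.28.

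**Figure D2:**
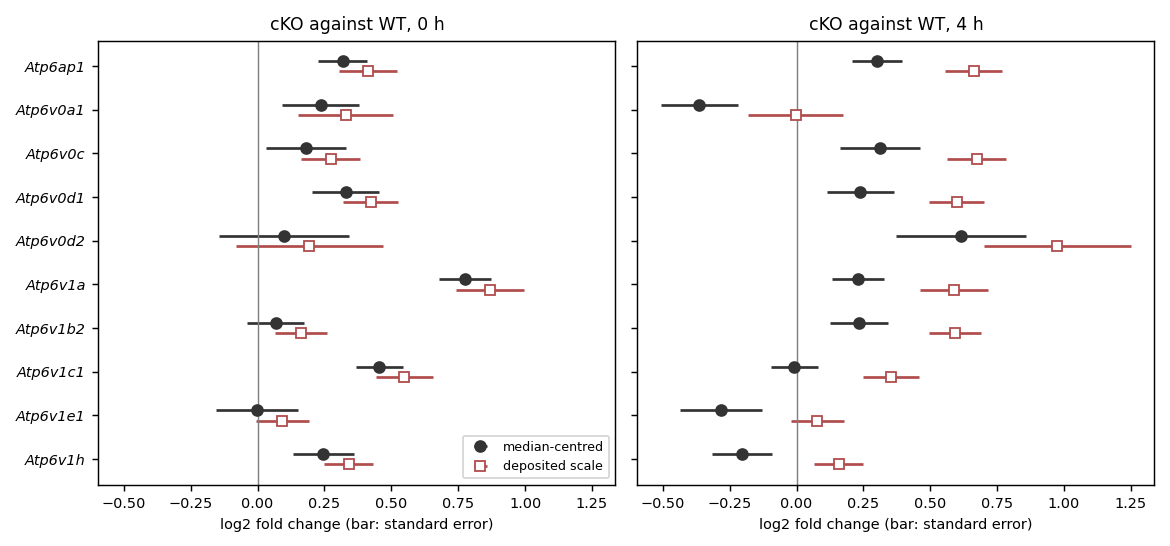
Log2 fold change of cKO against WT for each subunit at 0 h and 4 h, after median-centring (filled circles) and on the deposited scale (open squares), with bars of 1 standard error from limma over 8 samples. Atp6v1a at 0 h stands apart at 0.78, and the gap between the scales is wider at 4 h than at 0 h.

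The interaction term tested whether genotype had another effect at 4 h than at 0 h, and 0 of the 10 members were called by limma after Benjamini-Hochberg correction, against 1.07% of all genes higher and 1.06% lower. At an unadjusted p under 0.05, 4 members had a lower genotype effect (cKO minus WT, log2) at 4 h than at 0 h, against 12.6% of all genes, and 0 had a higher one, against 8.97%. The 4 were Atp6v0a1 (-0.60, adjusted p = 0.188), Atp6v1a (-0.55, adjusted p = 0.115), Atp6v1c1 (-0.46, adjusted p = 0.129) and Atp6v1h (-0.45, adjusted p = 0.2). The balance turned with the scale. On the deposited scale 0 members had a lower genotype effect at 4 h at an unadjusted p under 0.05, against 5.25% of all genes, and 2 had a higher one, Atp6v0c (0.40) and Atp6v1b2 (0.43), against 16.8%. The signs of the 4 members named first stayed negative in the 9 alternatives and when any 1 sample was left out. With a variance that followed the mean coverage, Atp6v1a (adjusted p = 0.0437) and Atp6v1c1 (adjusted p = 0.0467) passed. Atp6v0d2 had an interaction of 0.52 (adjusted p = 0.444).

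Stimulation with IFNγ and LPS was compared with 0 h within each genotype, and the isoform Atp6v0d2 fell more than any other member. Its deposited coverage was at least 10420 in every sample at 0 h and at most 969.7 in every sample at 4 h. No sample at 4 h came near a sample at 0 h. Relative to the median gene, Atp6v0d2 fell by 3.19 on the log2 scale in WT (standard error 0.24, adjusted p = 0.000289) and fell by 2.67 in cKO (standard error 0.24, adjusted p = 0.000579, both by limma, Benjamini-Hochberg method). Without centring its log2 fold change was -4.65 in WT and -3.87 in cKO. It was called lower in both genotypes in all 10 alternatives and whichever of the 8 samples was left out.

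The ratio of Atp6v0d2 to Atp6v0d1, 2 isoforms of the subunit that links the ring to the rotor, was 2.76 and 3.83 for WT against 3.17 and 2.43 for cKO at 0 h. At 4 h it was 0.331 and 0.513 for WT against 0.59 and 0.485 for cKO. The isoform with more coverage was thus d2 in all samples at 0 h and d1 in all samples at 4 h. The mean ratio was 7.90 times lower at 4 h in WT and 5.19 times lower in cKO, with an exact two-sided permutation p of 0.333 in each. The 5 genes whose centred log2 values followed those of Atp6v0d2 most closely over the 8 samples were Plekhg5, Capn15, Gpd1, Zfp839 and Cdk18, with Pearson r from 0.996 to 0.998, and 73 genes had an r above 0.99. This is a description over 8 samples in 4 groups, in which the genes share libraries and scaling.

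Of the other V0 members, Atp6v0a1 had a centred log2 fold change of -0.40 in WT (limma adjusted p = 0.0617) and fell by 1 in cKO (limma adjusted p = 0.0029). It was negative in every alternative in both genotypes, and called in 6 of 10 alternatives in WT and in all 10 in cKO. On the deposited scale it had called values of -1.87 in WT and -2.2 in cKO. Atp6v0d1 was also negative in all alternatives, with -0.20 in WT and -0.29 in cKO after centring, neither called, and called values of -1.67 and -1.5 on the deposited scale. Atp6v0c rose by 0.70 in WT and 0.83 in cKO after centring, and Atp6ap1 by 0.32 and 0.30. For both the sign turned on the deposited scale, where Atp6v0c had -0.77 and -0.37 and Atp6ap1 had -1.15 and -0.90, all called. The centred call of Atp6ap1 rested on few libraries and was kept in 1 of 8 fits with a sample left out in WT and in 2 of 8 in cKO.

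Among the V1 members Atp6v1e1 was the one with more coverage at 4 h than at 0 h on the deposited scale. It had 6189 and 6387 for WT against 6716 and 6693 for cKO at 0 h, and 8461 and 7729 for WT against 8217 and 8864 for cKO at 4 h. All 4 samples at 4 h were above all 4 at 0 h. After centring it rose by 1.83 in WT and 1.55 in cKO, and on the deposited scale by 0.36 and 0.35. With quantile normalization it was not called, at 0.04 in WT and -0.04 in cKO. The ratio of Atp6v1e1 to Atp6v1a went from 0.859 and 0.795 to 3.28 and 2.53 in WT and from 0.501 and 0.464 to 1.96 and 2.09 in cKO. A stretch of 32 exon bases of Atp6v1e1 overlaps Slc25a18 on the opposite strand, and the library kit did not mark the strand, so these reads cannot be told apart.

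Atp6v1c1 was lower at 4 h in all alternatives in both genotypes. Its called values were -0.30 in WT and -0.76 in cKO after centring, and -1.77 and -1.96 on the deposited scale, although in WT the centred call was lost whichever sample was left out. Atp6v1a fell by 0.52 in cKO and had a centred value of 0.03 in WT, and its deposited values were -1.44 in WT and -1.72 in cKO, both called. Atp6v1b2 was not called after centring, at -0.05 in WT and 0.12 in cKO, and its deposited values were -1.52 and -1.08, both called. Atp6v1h rose by 1.34 in WT and 0.89 in cKO after centring, while on the deposited scale it was not called in WT (-0.13) and fell by 0.31 in cKO. Its exons share 127 bases with Rgs20 on the opposite strand.

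After centring, stimulation raised 4 members and lowered 2 by the test in WT, where 37.3% of all genes were called higher and 22.9% lower. In cKO 4 members were higher and 4 lower, against 35.5% and 23.1% of all genes. On the deposited scale 1 member was higher and 8 lower in WT, against 12.9% and 58.2%, and 1 was higher and 9 lower in cKO, against 14.5% and 54.5%. The centred median of the members was -0.01 in WT and -0.09 in cKO, beside 0.23 and 0.17 over all genes.

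**Figure D3:**
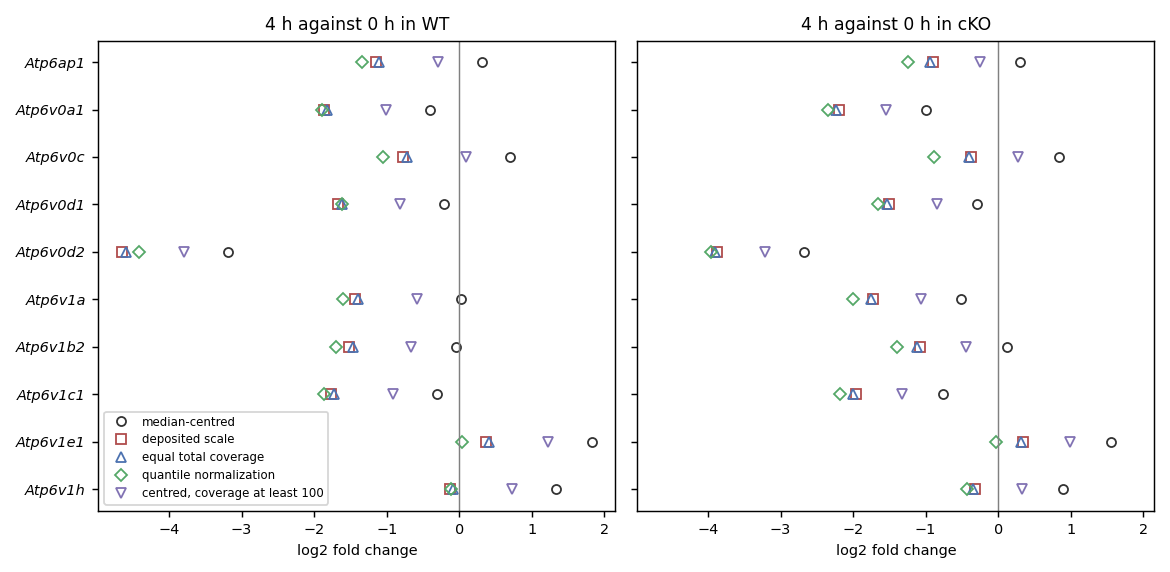
Log2 fold change of 4 h against 0 h in WT and in cKO for each subunit under 5 ways of scaling the samples, 1 symbol for each. Atp6v0d2 is the lowest member under all 5, whereas Atp6ap1, Atp6v0c and Atp6v1h change side with the scaling in both genotypes, Atp6v1a in WT, and Atp6v1b2 and Atp6v1e1 in cKO.

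The other genes of the pathway were followed by fixed lists. Of 16 other V-ATPase subunits 13 were in the tables and 11 were tested. At 4 h 1 was called higher in cKO and 1 lower, and at 0 h 0 were called in either direction by limma after Benjamini-Hochberg correction, with 8 of the 11 above 0, against 49.6% of all genes. Of all genes 7.20% were called higher and 8.71% lower at 4 h, and 2.79% and 2.17% at 0 h. At an unadjusted p under 0.05, 3 were higher and 1 lower at 0 h, against 11.2% and 10.7% of all genes, and 3 were higher and 2 lower at 4 h, against 14.7% and 18.8%. The 1 lower at 0 h was Atp6v0e2, with little coverage, 5.046 and 3.895 for WT against 2.817 and 1.984 for cKO. Its coverage was 0 in all 4 samples at 4 h, so its centred value of -0.36 there came from the centring alone. At 4 h 5 of the 11 were above 0, against 44.5% of all genes, and the median was -0.063, where it was 0.185 at 0 h. Without centring 5 were called higher and 0 lower at 4 h, against 19.6% and 3.38% of all genes, and 1 and 0 at 0 h, against 3.42% and 1.66%. Atp6v0a2, another isoform of subunit a, had a deposited coverage of 251.1 and 322.1 for WT against 532.2 and 544.2 for cKO at 4 h. It rose in cKO at 4 h by a centred log2 fold change of 0.56 (limma adjusted p = 0.0272), and at 0 h its value was 0.37 (limma adjusted p = 0.12). Atp6v1d, the rotor shaft of V1, fell at 4 h by 0.39 after centring (limma adjusted p = 0.0357), with a deposited value of -0.03 that was not called. Atp6ap2, the second accessory protein, was not called at 4 h (-0.42, adjusted p = 0.0875) or at 0 h (-0.20, adjusted p = 0.453).

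Tcirg1 encodes the a3 isoform, which osteoclasts and macrophages use in lysosomes. At 0 h its deposited coverage was 8985 and 8951 for WT against 14340 and 16060 for cKO, and at 4 h it was 9310 and 9085 for WT against 15960 and 16790 for cKO. The genotypes did not overlap at either time. The centred log2 fold changes, 0.66 at 0 h and 0.47 at 4 h, did not pass the threshold (adjusted p = 0.0529 and 0.061 from limma), and Tcirg1 passed in 7 of 9 alternatives at 0 h and in 6 of 9 at 4 h. With each of the 8 samples left out in turn it passed in 2 fits at 0 h (adjusted p up to 0.231) and in 1 at 4 h (up to 0.241). The ratio of Tcirg1 to Atp6v0a1 was 2.03 and 1.67 for WT against 2.28 and 2.69 for cKO at 0 h. After 4 h it was 8.01 and 5.93 for WT against 11.6 and 13.0 for cKO. The ratio was higher in every sample at 4 h than in any at 0 h, by 3.74 times in WT and 4.96 times in cKO, and at both times the cKO samples exceeded the WT samples (exact two-sided permutation p = 0.333 for each of these 4 comparisons of 2 samples with 2).

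**Figure D4:**
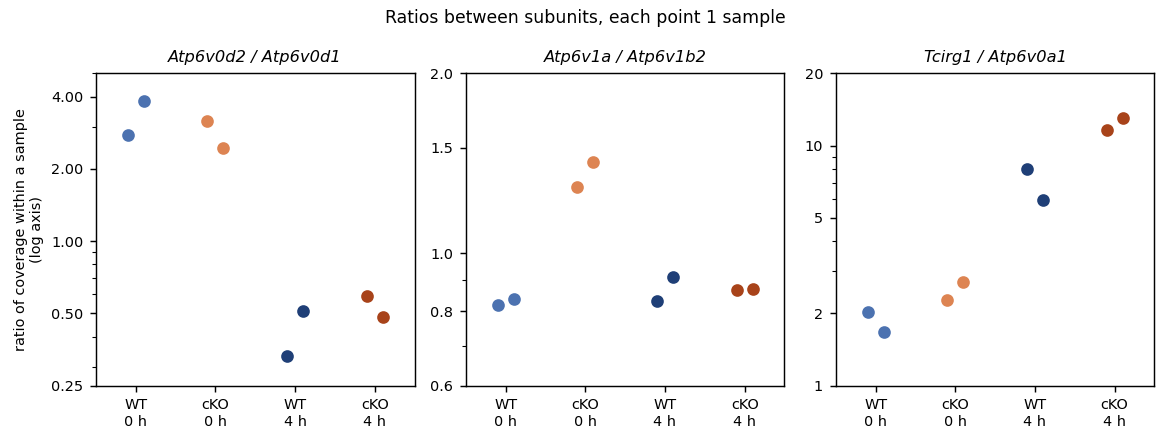
Ratios of coverage between subunit genes within each sample (log axis), 1 point per sample and 2 per group. The ratio of Atp6v0d2 to Atp6v0d1 is above 2 at 0 h and below 1 at 4 h, that of Atp6v1a to Atp6v1b2 exceeds 1 in the cKO samples at 0 h, and that of Tcirg1 to Atp6v0a1 is higher at 4 h.

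The lists of proteins that assemble or regulate the pump held 17 tested genes, of which 3 were called lower in cKO at 4 h after centring and 0 higher, against 8.71% and 7.20% of all genes. At 0 h 0 were called in either direction. On the deposited scale 1 gene of these lists was called lower at 4 h, Rogdi, and 2 TLDc genes and 1 exchanger gene were called higher, against 3.38% and 19.6% of all genes. In the RAVE complex, which helps V1 dock on V0, 2 of 4 genes were called lower at 4 h. The other 2, Wdr7 (0.41) and Dmxl1 (0.08), were above 0 after centring and not called on either scale. Rogdi fell at 4 h by 1.11 (limma adjusted p = 0.0376), from 207.9 and 169.5 in WT to 115.5 and 107.4 in cKO. At 0 h its value was -0.85 (limma unadjusted p = 0.014, adjusted p = 0.118), and the difference between the times was -0.26 (interaction, adjusted p = 0.688). At 4 h Dmxl2 fell by 0.57 (limma adjusted p = 0.0369). Without centring Rogdi was still called (-0.75) and Dmxl2 was not (-0.21). Of 5 tested genes with a TLDc domain, a family that acts on V-ATPase assembly, Ncoa7 fell at 4 h by 0.42 (limma adjusted p = 0.042), with -0.05 on the deposited scale. Tbc1d24 of the same list had 4.734 and 9.481 for WT against 19.26 and 17.19 for cKO at 4 h, a centred log2 fold change of 1.07 that was not called (limma adjusted p = 0.0544) and a deposited one of 1.43 that was (adjusted p = 0.0415), and 3 of the 5 were above 0, against 44.5% of all genes. The centred calls of these genes and of the other subunits depended on the setting and on single libraries. Of 9 alternatives, 8 kept the call of Atp6v0a2, 6 that of Rogdi, 4 that of Atp6v1d and 3 each those of Dmxl2 and Ncoa7. The call of Rogdi was lost with quantile normalization (adjusted p = 0.0524), with no filter on coverage (0.0623) and with only the 4 samples compared (0.116). With each of the 8 samples left out in turn, that of Atp6v0a2 was kept in 3 fits (without either WT replicate at 0 h or WT replicate 2 at 4 h), that of Rogdi in 2 (without WT replicate 2 at either time), that of Dmxl2 in 1 (without WT replicate 1 at 4 h) and those of Atp6v1d and Ncoa7 in 0. None of 3 V0 assembly factors and none of 5 genes for chloride-proton exchange in endosomes and lysosomes passed at either time by limma after Benjamini-Hochberg correction. At an unadjusted p under 0.05, 1 assembly factor was lower at 4 h, 1 TLDc gene was higher and 1 lower at 4 h, and of the exchanger genes 2 were higher and 1 lower at 4 h and 1 was higher at 0 h. These stand against 14.7% of all genes higher and 18.8% lower at 4 h and 11.2% higher at 0 h.

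Osteoclasts are rich in Atp6v0d2 and Tcirg1, so markers of osteoclasts were compared between genotypes. The 8 osteoclast markers summed to a deposited coverage of 1320 to 1780 in WT and 2760 to 2910 in cKO at 0 h, and of 939 to 1160 in WT and 2140 to 2370 in cKO at 4 h. Most of the difference in the sum came from Ctsk at 0 h, with 398.2 and 511.4 for WT against 1558 and 1434 for cKO, and from Acp5 at 4 h, with 525.2 and 548.0 for WT against 1415 and 1272 for cKO. Of the 8, 1 was called higher in cKO at 0 h and 3 at 4 h, where 2.79% and 7.20% of all genes were, and 0 were called lower. The called markers were Ctsk at both times (centred log2 fold change 1.63 at 0 h and 3.25 at 4 h), and Acp5 (0.96) and Mmp9 (2.28) at 4 h. Ocstamp (0.00 at 0 h and 0.12 at 4 h), Dcstamp (-0.19 and -0.06) and Itgb3 (0.51 and 0.25) were not called. Calcr, the calcitonin receptor that marks osteoclasts, was at 0 in all 4 samples at 0 h and at most 2.553 at 4 h, and Oscar was at most 1.643 in any sample, with uncalled values of 1.97 at 0 h and -2.24 at 4 h. Of the 8 macrophage markers, 2 were called at 0 h and 4 at 4 h, with Adgre1 (-0.75 and -0.82) and Fcgr1 (-0.99 and -0.65) lower in cKO at both times, Itgam (-0.47) lower at 4 h and Cd68 (0.71) higher at 4 h. Of all genes 2.17% were called lower at 0 h and 8.71% at 4 h. On the deposited scale the decrease of Adgre1 was called at neither time (-0.66 at 0 h, adjusted p = 0.0604, and -0.46 at 4 h). That of Fcgr1 was called at 0 h (-0.89) and not at 4 h (-0.29), and that of Itgam at 4 h was not called (-0.11). Cd68 was called higher on this scale by limma both without stimulation (0.69, adjusted p = 0.0413) and with it (1.07, adjusted p = 0.00737). Mertk (0.52, adjusted p = 0.0278) and the osteoclast marker Calcr, with little coverage (0.59, adjusted p = 0.0245), were also called higher in stimulated cKO cells there. Of the 5 dendritic cell markers Xcr1 was called, at 4 h, with 17.48 and 52.36 for WT against 4.636 and 2.318 for cKO (centred log2 fold change -3.53, limma adjusted p = 0.0174, and -3.17 on the deposited scale, adjusted p = 0.023). Zbtb46 went the other way at 4 h, with 6.589 and 7.083 for WT against 16.55 and 23.92 for cKO, a centred value of 1.17 that was not called (adjusted p = 0.122) and a deposited value of 1.53 that was (adjusted p = 0.0446). The other 3 were not called on either scale. The part of these markers in the values of the members was not tested, and in bulk samples fewer cells of a type and less RNA per cell cannot be told apart.

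NUDT21 binds UGUA in the RNA upstream of polyadenylation sites, so the 3′UTRs of the members were counted for it in GENCODE M21 on GRCm38. All 10 members held at least 1 UGUA, with a median of 4 in a median 3′UTR of 727 bases and 5.86 per kilobase. Over 13644 genes 85.8% held at least 1, with a median of 5 in 989 bases and, among those with a 3′UTR over 100 bases, 5.17 per kilobase. Atp6v1a had the longest 3′UTR of the 10, 2022 bases, and the most UGUA, 20, or 9.89 per kilobase, while per kilobase the highest was Atp6v1h at 10.99, with 4 in 364 bases. Atp6v0d2 had 7 in 1378 bases, and the fewest were in Atp6v1e1, 1 in 458 bases. Atp6v1a lies on chromosome 16 from 44085402 to 44139705 on the minus strand with 15 exons, and Atp6v0d2 on chromosome 4 from 19876841 to 19922605 on the minus strand with 8 exons. Mean coverage per base also depends on which 3′ end is used, and whether the 3′UTR of any member changed length was not tested.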

How the data were processed

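RNA-seq of 8 BMDM samples, 2 per group, was used. The authors aligned reads with HISAT2 2.2.1 to GRCm38, quantified genes with StringTie 2.1.7 and deposited 1 coverage signal for each gene in each sample, with a table for each time. The unit is not named in the tables and was read from the values: of 4305 low values, 29.5% became whole bases within 0.01 when multiplied by transcript length, against 2.0% by chance. Reads per gene are therefore unknown and no counting interval was given. The tables also hold the authors' fold changes and p-values between genotypes, which were not used, and 0 columns of per-sample values were left unused. The labels name the stimulation for the 0 h samples too, and these were taken as unstimulated from their titles.

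The log2(coverage + 0.1) values of genes whose coverage averaged 0.5 or more were centred on each sample's median, and all 8 samples were fitted by group with limma 3.58.1 in R 4.3.3. Fold changes are on that scale, which understates changes of low genes. Calls required a Benjamini-Hochberg adjusted p under 0.05 over 16284 genes. The residual degrees of freedom were 4. P-values measure the spread between samples that each pool 2 mice. The scale and the joint fit were chosen here, and the study's rule (fold above 1.5, unadjusted p under 0.05) was an alternative. Others were the deposited scale, quantile normalization, equal total coverage, a pseudocount of 1, other filters, a variance trend, a fit of 4 samples, the replicate number as a block, each sample left out, and centring on genes with coverage of at least 100, added after seeing the data. The named genes were all members, Nudt21, the listed pathway genes called between genotypes, Tcirg1, Atp6ap2 and Atp6v0a2, and the 5 genes most like the member with the largest effect at 4 h. Markers, Tbc1d24, Atp6v0e2, Dmxl1, Wdr7 and genes of a promoter motif were named from their lists after their values were seen. Members and lists were chosen with earlier results of these data known. Promoters came from RefSeq (GRCm38.p6), gene models from GENCODE M21.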

Additional observations from a re-analysis of the deposited data

Results flagged for a closer look

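Atp6v1h, subunit H of the V1 sector, stood out because after centring the cKO samples exceeded the WT samples at 0 h and were below them at 4 h. The difference of its log2 fold changes between the times was -0.449 (limma interaction, unadjusted p = 0.037, adjusted p = 0.2), so it did not pass the adjusted threshold. On the deposited scale the cKO samples exceeded the WT samples at both times, and the opposite direction at 4 h was not seen. Its adjusted p ranged from 0.088 to 0.477 over 9 alternatives.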

How the results depend on the processing

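Counts of calls differed between settings, and the cause was not tested. At 4 h the number of members called between genotypes was 0 after centring, 5 on the deposited scale, and 1 each with equal total coverage, quantile normalization, a variance trend and centring on genes with coverage of at least 100. The number of genes called was 2591, and 1629 with no filter, 3909 with a variance trend and 236 with only the 4 samples compared, a fit with fewer samples. At 0 h 1 member was called, 0 with equal total coverage or only 4 samples, and 2 with a mean coverage of at least 1 or a variance trend. Genes called at 0 h were 808, and 1475 with quantile normalization, 1706 with a variance trend, 176 with only 4 samples and 2052 by the fold and unadjusted p. For stimulation in WT 6 members were called, and 3 with only 4 samples. For the interaction 346 genes and 0 members were called, and 1157 and 2 with a variance trend and 2657 and 1 by the fold and unadjusted p. WT and cKO share no replicate numbers, and the deviations of samples with the same number correlated by 0.0204 in WT and 0.0237 in cKO, and the sources used here do not say whether samples of the same name at both times came from the same mice, so the pairing is not known. With the replicate number as a block, 4 members were called for stimulation in WT, 7 in cKO and 0 for the interaction, where 0 genes were called. The stimulation calls not made with the block were those of Atp6ap1 in WT (limma adjusted p = 0.092) and in cKO (0.104) and of Atp6v1c1 in WT (0.109).

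Of the calls at 4 h 45.2% were higher in cKO, and 85.3% on the deposited scale and 67.6% with equal total coverage. At 0 h 56.2% were higher, and 67.4% on the deposited scale. For stimulation 62% (WT) and 60.6% (cKO) were higher, and 18.1% and 21.1% on the deposited scale, 19% and 20.5% with equal total coverage, 42.2% and 40.8% with quantile normalization and 40.7% and 38.7% with the added centring. For the interaction 50.3% were higher, and 75% on the deposited scale and 70.4% with equal total coverage.

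Single genes whose sign turned are given with their log2 value under that setting, and the cause was not tested. In the genotype effect at 4 h the sign turned with the deposited scale for Atp6v1c1 0.352, Atp6v1e1 0.0777 and Atp6v1h 0.157, with quantile normalization for Atp6v1c1 0.102, under equal total coverage for Atp6v1c1 0.141, with no filter on coverage for Atp6v1c1 0.0226, with a mean coverage of at least 1 for Atp6v1c1 0.00934, with centring on genes with coverage of at least 100 for Atp6v1c1 0.0215, and with only the 4 samples compared for Atp6v1c1 0.0157. In the genotype effect at 0 h the sign turned with the deposited scale for Atp6v1e1 0.0927, with quantile normalization for Atp6v1d -0.0238 and Dmxl2 -0.00758, under equal total coverage for Atp6v1d -0.0205 and Dmxl2 -0.00815, with no filter on coverage for Atp6v1e1 0.015, with centring on genes with coverage of at least 100 for Atp6v1d -0.0196 and Dmxl2 -0.00717, and with only the 4 samples compared for Atp6v1e1 0.000519. In the stimulation effect in WT the sign turned with the deposited scale for Atp6ap1 -1.15, Atp6v0c -0.769, Atp6v1a -1.44 and Atp6v1h -0.129, with quantile normalization for Atp6ap1 -1.34, Atp6v0c -1.05, Atp6v1a -1.6 and Atp6v1h -0.11, under equal total coverage for Atp6ap1 -1.1, Atp6v0c -0.718, Atp6v1a -1.39 and Atp6v1h -0.0789, with no filter on coverage for Atp6v1b2 0.0282, with a mean coverage of at least 1 for Atp6v1a -0.0307, and with centring on genes with coverage of at least 100 for Atp6ap1 -0.294 and Atp6v1a -0.583. In the stimulation effect in cKO the sign turned with the deposited scale for Atp6ap1 -0.902, Atp6v0c -0.37, Atp6v1b2 -1.08 and Atp6v1h -0.313, with quantile normalization for Atp6ap1 -1.24, Atp6v0c -0.88, Atp6v1b2 -1.4, Atp6v1e1 -0.0367 and Atp6v1h -0.431, under equal total coverage for Atp6ap1 -0.94, Atp6v0c -0.408, Atp6v1b2 -1.12 and Atp6v1h -0.352, and with centring on genes with coverage of at least 100 for Atp6ap1 -0.254 and Atp6v1b2 -0.437. In the interaction the sign turned with the deposited scale for Atp6ap1 0.25 and Atp6v0d1 0.175, with quantile normalization for Atp6ap1 0.0951, under equal total coverage for Atp6ap1 0.161 and Atp6v0d1 0.0865, with a mean coverage of at least 1 for Atp6ap1 0.00216, and with centring on genes with coverage of at least 100 for Atp6ap1 0.0401.

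Leaving out each sample in turn, with a lone sample assumed to vary like the other groups, gave 446 to 2330 genes and 0 members at 4 h, 253 to 834 genes and 0 to 1 members at 0 h, 8627 to 9497 genes and 4 to 5 members for stimulation in WT, 7592 to 9840 genes and 7 to 8 members in cKO, and 165 to 490 genes and 0 members for the interaction. The number of genes called fell by more than 1.5 times, for genotype at either time and for the interaction, without any 1 of the 4 cKO samples, to the fewest at 4 h without cKO replicate 4 at 4 h, and at 0 h also without either WT replicate at 0 h. Ranges that crossed 0 were -0.0378 to 0.0221 for Atp6v1c1 at 4 h. At 0 h they were -0.122 to 0.319 for Atp6v0d2, -0.00325 to 0.136 for Atp6v1b2, -0.0578 to 0.0519 for Atp6v1e1 and -0.0119 to 0.0253 for Atp6v1d. For stimulation in WT they were -0.0678 to 0.107 for Atp6v1a and -0.125 to 0.0253 for Atp6v1b2, and for the interaction -0.0688 to 0.0359 for Atp6ap1, -0.039 to 0.302 for Atp6v0c and -0.201 to 0.0163 for Atp6v0d1.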
